A study of Danio rerio with 18 samples.

Results

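The 9 genes described here encode the calcium feedback of vertebrate phototransduction: 3 recoverins (rcvrna, rcvrn2 and rcvrn3), 4 guanylate cyclase activators (guca1a, guca1b, guca1c and guca1d) and 2 retinal guanylate cyclases (gucy2d and gucy2f). They were chosen by gene symbol and Ensembl identifier, with earlier results of these data known. All 9 were found among the 31624 genes of the read count table.

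In a photoreceptor, cGMP holds a cation channel open in darkness, and light leads to its breakdown and to a fall of intracellular calcium. Recoverin binds calcium and then inhibits the kinase that shuts off the activated opsin. The guanylate cyclase activating proteins (GCAPs, the guca1 genes) stimulate the membrane guanylate cyclases when calcium falls, so that cGMP is restored. In fish this machinery is found in the rods and cones of the retina and in the photoreceptor cells of the pineal, which lies on the dorsal forebrain and secretes melatonin.

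The libraries came from mature zebrafish of the Tubingen strain, about 1.5 years old, either wild-type or opn4 dko. The opn4 dko fish carried TALEN-induced frameshift mutations in both opn4.1 and opn4xb, which encode melanopsins, so that their transcripts can still be counted. After 14 days of blue light in a 12:12 h LD regime, eyes and brains were dissected at ZT4 to ZT6, and the brain was cut into an anterior part (part of the forebrain with the pineal) and a posterior part (midbrain, hindbrain and the remaining forebrain). Each of the 6 groups had 3 biological replicates, each pooled from 3 fish, and mRNA selected by its poly(A) tail was read from a single end over 100 bp. Library totals ranged from 2186877 to 6946549 counts, and wild-type eyes had the lowest (2186877 to 3286423), so that 3 counts in a library corresponded to between 0.417 and 1.47 CPM, the count relative to the TMM-scaled library size. Replicate 1 of both brain parts and genotypes was sequenced in lane 6, the other anterior brain libraries in lane 5, the other posterior brain libraries in lane 4 and all eyes in lane 7, so that no eye library shared a lane with a brain library. Tissue and lane therefore cannot be told apart between eye and brain, whereas both genotypes were present in every lane.

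In the anterior brain, the recoverins were at or near 0 in wild-type and were read in every opn4 dko library. rcvrna (ENSDARG00000052223) had 0 counts in all 3 wild-type libraries against 64, 51 and 41 counts in the opn4 dko libraries, replicates 1 to 3. The opn4 dko level was 9.68 ± 1.27 CPM (SD, n = 3), at least 49.6-fold higher than the floor of 3 counts over the wild-type group, and the gene passed the cutoff (edgeR quasi-likelihood test, FDR 2.72e-04). This level was the steadiest of the 3 recoverins across the opn4 dko pools, between 8.89 and 11.1 CPM.

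rcvrn3 (ENSDARG00000009637) had 1, 1 and 2 counts in wild-type against 595, 415 and 168 in opn4 dko. Its mean level was 0.272 ± 0.148 CPM in wild-type and 70.1 ± 29 CPM in opn4 dko (SD, n = 3 each), and the log2 fold change was 7.96 with a standard error (SE) of 0.49 (edgeR quasi-likelihood test, FDR 5.24e-09). The genotypes did not overlap, and opn4 dko pool 3 (36.9 CPM) was lower than the others (82.7 and 90.6 CPM).

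rcvrn2 (ENSDARG00000019902) had 0 counts in the 3 wild-type libraries against 97, 32 and 7 in opn4 dko, a mean of 7.33 ± 5.98 CPM (SD, n = 3). It was at least 43.2-fold higher over the opn4 dko group than the floor of 3 counts in wild-type. Opn4 dko pool 3 was again the lowest, at 1.54 CPM, and its 7 counts kept rcvrn2 out of the main test, which required about 10 counts in 3 libraries. Without that filter, rcvrn2 passed (edgeR quasi-likelihood test, FDR 1.02e-07). The fit without the filter gave far smaller FDR values than the main fit, such as 6.90e-77 for rcvrn3 (edgeR quasi-likelihood test). The size of these values is thus not a measure of the spread between pools. With a filter of CPM above 1 in at least 2 libraries, rcvrn2 had FDR 1.21e-05 (edgeR exact test).

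Of the 4 activators, only guca1a was read in every opn4 dko anterior brain library. guca1a (ENSDARG00000010454) had 0 counts in the 3 wild-type libraries against 125, 32 and 50 in opn4 dko. The opn4 dko level was 11.8 ± 5.24 CPM (SD, n = 3), at least 65.8-fold higher than the wild-type floor (edgeR quasi-likelihood test, FDR 1.12e-04). Its highest pool was replicate 1 and its lowest replicate 2, unlike the recoverins rcvrn2 and rcvrn3, which were lowest in replicate 3.

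The other activators were at most 4 counts in any anterior brain library. guca1b (ENSDARG00000013393) had 4 counts in the second wild-type library and 1 in the second opn4 dko library. guca1c (ENSDARG00000030758) had 4 counts in the second opn4 dko library, and guca1d (ENSDARG00000044629) had 0 in all 6. At this depth, no difference between genotypes was detectable for these genes, and for guca1b and guca1c a fit without the filter gave FDR 0.929 and 0.774 (edgeR quasi-likelihood test).

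The guanylate cyclases were read in every anterior brain library of both genotypes. gucy2f (ENSDARG00000025504) had 1, 1 and 2 counts in wild-type against 95, 63 and 17 in opn4 dko. Its mean rose from 0.272 ± 0.148 to 10.2 ± 5.63 CPM (SD, n = 3 each), with a log2 fold change of 5.17 and an SE of 0.81 (edgeR quasi-likelihood test, FDR 0.00126). The groups did not overlap, and opn4 dko pool 3 (3.73 CPM) was the lowest of its group.

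gucy2d (ENSDARG00000026820) had 26, 6 and 10 counts in the wild-type anterior brain, against 132, 72 and 56 in opn4 dko. The mean was 2.99 ± 2.57 CPM in wild-type and 15.5 ± 3.04 CPM in opn4 dko (SD, n = 3 each), and the log2 fold change was 2.41 with an SE of 0.53 (edgeR quasi-likelihood test, FDR 0.025). The groups did not overlap, since the highest wild-type library reached 5.86 CPM and the lowest opn4 dko library 12.3 CPM. This call depended on single libraries. Without wild-type replicate 1 the log2 fold change was 3.35 (FDR 0.00215; edgeR quasi-likelihood test). gucy2d did not pass without wild-type replicate 2 (FDR 0.102) or 3 (FDR 0.123), without opn4 dko replicate 1 (FDR 0.174) or 2 (FDR 0.104), and in the fit of all 18 libraries (FDR 0.0602; edgeR quasi-likelihood test).

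**Figure D1:**
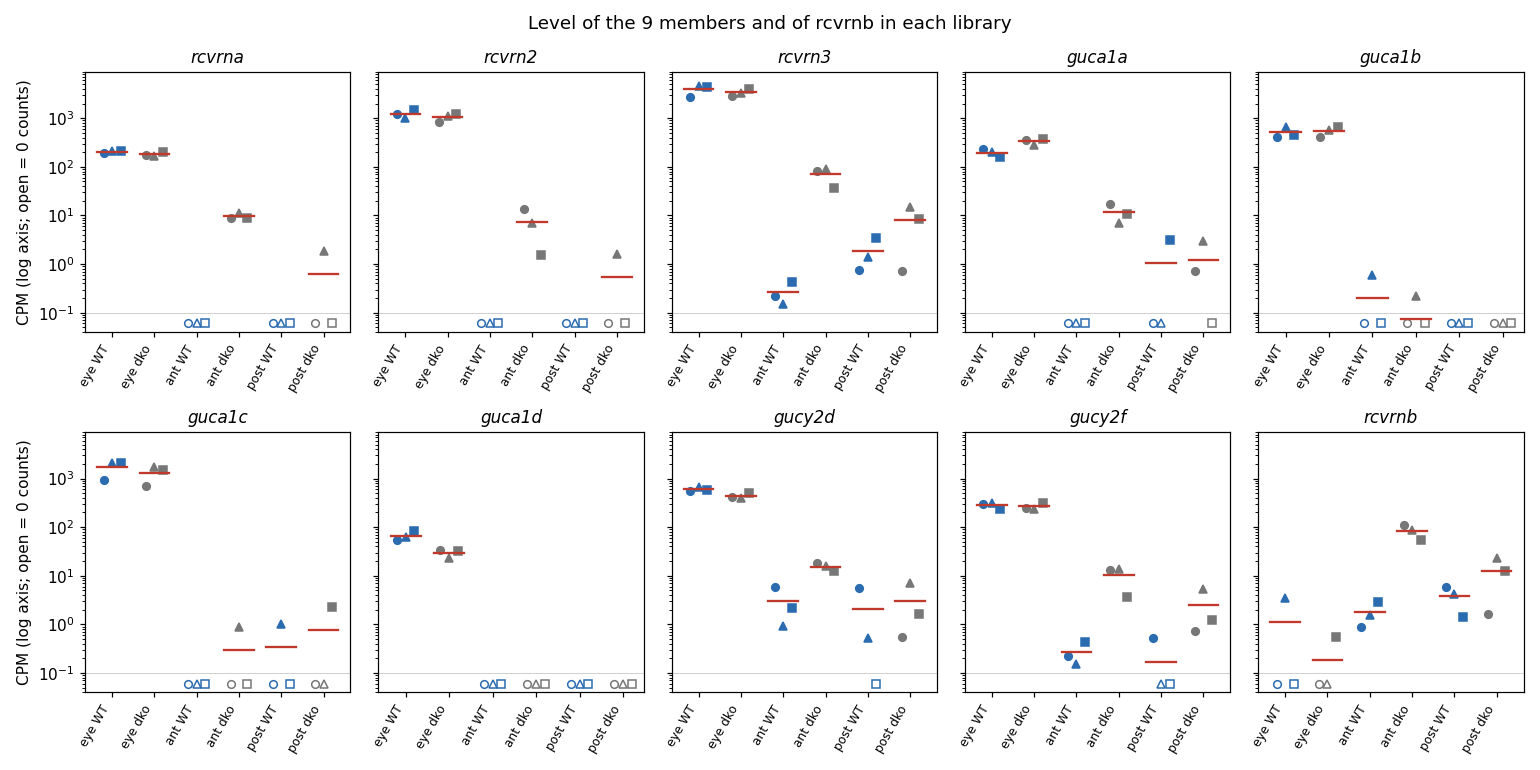
Level of each of the 9 genes and of rcvrnb in CPM (log axis) in the 6 groups, with wild-type in blue, opn4 dko in grey, circle, triangle and square for replicates 1, 2 and 3, and a red bar for the group mean. Open symbols near the bottom are libraries with 0 counts, which fill the wild-type anterior brain for rcvrna, rcvrn2 and guca1a, and most brain libraries for guca1b, guca1c and guca1d.

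Of the 9 genes, 5 were kept by the filter on low counts in the anterior brain and all 5 were called higher in opn4 dko, where 0.613% of the 15341 genes tested were called higher. The libraries of the genotypes did not overlap for these 5, where 7.71% of genes tested lay wholly higher in opn4 dko. All 5 were kept only through their opn4 dko counts, and a gene kept in that way tends to be higher in opn4 dko, so the count by itself is a description. Without the filter, 6 of the 8 genes with any count passed, and guca1b and guca1c did not. In a bulk tissue pool, fewer cells that carry a transcript and less transcript per cell cannot be told apart. With sequencing lane as a term, chosen after seeing the data, 5 members again passed. The share of all genes called is given here for the main fit only, so the counts without the filter and with lane are descriptions.

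Markers of photoreceptor tissues moved with the same libraries. All 6 matched rod markers were called higher in anterior brains of opn4 dko, where their summed level was 154 to 315 CPM, against 2.75 to 3.38 CPM in wild-type. The marker lists were chosen with earlier results of these data known. The identifiers of all 6 rod markers came from the paper's source data, so their calls are a description. The paper lists saga, gngt1 and gnat1 of this list as expressed in the zebrafish pineal, so the rod list is not specific to retinal rods. Of 8 matched pineal markers, 6 were tested and 4 called higher, with a summed level of 5.49 to 8.34 CPM in wild-type and 73.3 to 161 CPM in opn4 dko. The identifiers of asmt, aanat2, otx5, lhx4, tph2 and crx also came from the paper's source data, so the pineal calls are likewise a description. 1 of the 8 had no count in either genotype's libraries. asmt, which encodes the last enzyme of melatonin synthesis, had 3, 7 and 6 counts in wild-type against 536, 281 and 158 in opn4 dko. 2 other pineal list genes were read in wild-type too and did not pass: aanat2, an enzyme of melatonin synthesis, had 22, 18 and 16 counts against 172, 42 and 33 (edgeR quasi-likelihood test, FDR 0.099), and the homeobox gene bsx had 0, 9 and 12 against 34, 6 and 24 (edgeR quasi-likelihood test, FDR 0.732). The paper used a different test, the exact test of edgeR, and reports aanat2 as higher in the opn4 dko anterior brain. The list is not specific to the pineal in these libraries, since it summed to 1181 to 1337 CPM in wild-type eyes, where asmt had 216, 239 and 145 counts.

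The cone and pigment epithelium lists were less fully covered. The 10 matched cone markers summed to 1.07 to 6.31 CPM in wild-type and 31.4 to 57.5 CPM in opn4 dko, with 5 of them at 0 in every opn4 dko library, and 1 of the 2 tested (arr3a) was called higher. The 5 pigment epithelium markers summed to 10.4 to 21.4 CPM in wild-type and 66.9 to 136 CPM in opn4 dko. Of these, 2 were tested and 1 was called higher, 2 had no count in wild-type and 1 had none in opn4 dko. The identifiers of arr3a and of the pigment epithelium list gene rpe65a also came from the paper's source data. The paper lists both genes as expressed in the pineal, so these lists are not specific to the retina either. The 5 lens markers stayed at 0 to 1.80 CPM in wild-type and 0.655 to 4.61 CPM in opn4 dko, and 4 of them had 0 counts in all 3 opn4 dko libraries. The part of pineal or retinal tissue content in the differences of the 9 genes was not tested.

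Set against the eye, the opn4 dko anterior brain held a different share of each gene's eye level. Over the summed counts, rcvrna in the anterior brain was at 5.26% of its opn4 dko eye level (95% exact interval 4.44 to 6.19%, counting error only). gucy2f was at 4.06% (3.47 to 4.73%), guca1a at 3.77% (3.26 to 4.33%) and gucy2d at 3.66% (3.22 to 4.15%), so the intervals of these 3 genes overlapped. rcvrn3 was at 2.17% (2.05 to 2.30%) and rcvrn2 at 0.811% (0.680 to 0.961%), below these 4 genes beyond counting error. Taken pool by pool, the range of rcvrn3 (1.09 to 2.67%) overlapped those of gucy2f (1.40 to 5.16%), guca1a (2.08 to 5.16%) and rcvrn2 (0.147 to 1.29%). The pools of rcvrn2 stayed under all pools of rcvrna, guca1a, gucy2d and gucy2f. These 3 opn4 dko pools are the only replicates of these shares, and the differences between genes were not tested.

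guca1c was at 0.0197% of its eye level (0.00537 to 0.0505%) and guca1b at 0.0115% (2.91e-04 to 0.0641%), and their highest pools (0.0674 and 0.0399%) lay under the lowest pool of each of the 6 genes read in every opn4 dko pool. guca1d had 0 counts in the anterior brain, and the floor of 3 counts corresponds to 0.612% of its eye level. Its exact upper limit was 0.756%, which lies within the interval of rcvrn2 and does not separate guca1d from it. The lens genes cryaa and crybb1, with 31843 and 19015 counts in the opn4 dko eyes, had 0 in the opn4 dko anterior brain. Their exact intervals reached up to 0.00893% and 0.015%. cryba1b and lim2.1 also had 0 counts there, with upper limits of 0.365% and 0.25%. The remaining lens gene, bfsp2, had 36 anterior brain counts, which is 0.199% of its eye level (0.139 to 0.275%, pools 0.0574 to 0.404%) and lies above the shares of guca1b and guca1c.

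**Figure D2:**
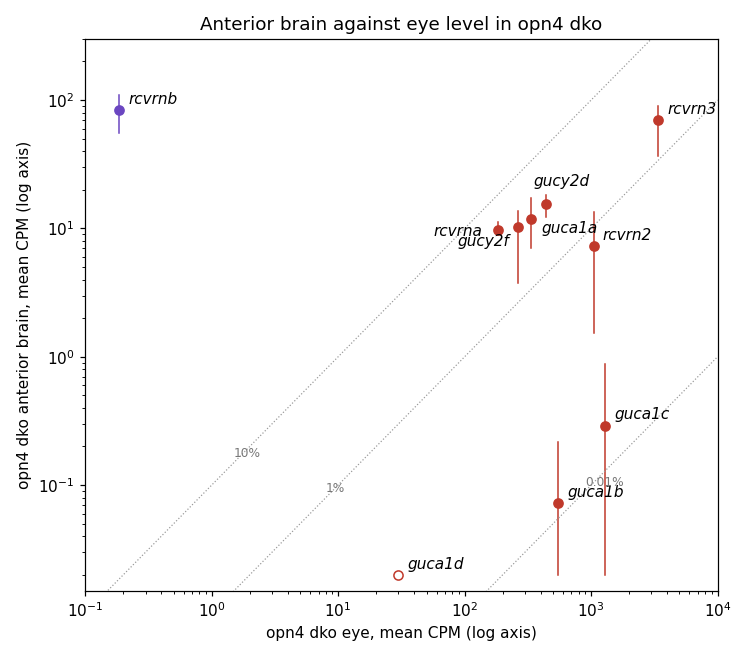
Mean level in the opn4 dko anterior brain against mean level in the opn4 dko eye, both in CPM on log axes, with vertical lines from the lowest to the highest of the 3 anterior brain libraries and dotted lines at constant percentages of the eye level. guca1d is drawn open at the lower edge because it had 0 counts in the anterior brain, and lines that reach that edge include libraries with 0 counts. rcvrnb (purple) stands apart as a gene read in the opn4 dko anterior brain and nearly absent from the opn4 dko eye.

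A further recoverin gene, rcvrnb (ENSDARG00000059257), is not among the 9 but moved with them in the anterior brain. It had 4, 10 and 13 counts in wild-type against 795, 393 and 253 in opn4 dko, a rise from 1.76 ± 0.99 to 83.9 ± 27.5 CPM (SD, n = 3 each). The log2 fold change was 5.57 with an SE of 0.35 (edgeR quasi-likelihood test, FDR 6.53e-09). In the eye it was at 0, 10 and 0 counts in wild-type against 0, 0 and 2 in opn4 dko, so it was nearly absent from the eye libraries, in contrast to rcvrna, rcvrn2 and rcvrn3. Between wild-type eye and wild-type anterior brain, where both levels were low, rcvrnb was not called. Its log2 fold change there was -0.51 with an SE of 1.06 (edgeR quasi-likelihood test, FDR 0.731).

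3 lists of related genes were set beside the members. Of the recoverin and GCAP relatives, 10 were matched and 9 tested in the anterior brain, and rcvrnb was the only one called, with a list median log2 fold change of 0.05 against 0.00 for all genes. The other calcium sensors of neurons on this list included vsnl1b, which encodes a visinin-like protein and had a log2 fold change of 0.05 with an SE of 0.11. None of the 6 tested other guanylate cyclases, the natriuretic peptide receptors and the subunits of the nitric oxide receptor among them, was called in either direction (median 0.03; edgeR quasi-likelihood test).

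Among the calcium feedback partners, which encode opsin kinases, cGMP-gated channel subunits, exchangers and cyclase regulators, 6 of 12 matched genes were tested and 2 were called, both higher. grk7a, an opsin kinase of cones, had 0 counts in wild-type against 154, 56 and 21 in opn4 dko, a level at least 73.4-fold higher (edgeR quasi-likelihood test, FDR 1.96e-04). The paper lists grk7a as expressed in the zebrafish pineal too. slc24a1, the potassium-dependent sodium/calcium exchanger of rods, had 4, 18 and 9 counts in wild-type against 110, 100 and 77 in opn4 dko, a log2 fold change of 3.2 with an SE of 0.46 (edgeR quasi-likelihood test, FDR 4.17e-04). rd3, which encodes a regulator of retinal guanylate cyclase, did not pass, with a log2 fold change of 1.23 and an SE of 0.48 (edgeR quasi-likelihood test, FDR 0.38).

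**Figure D3:**
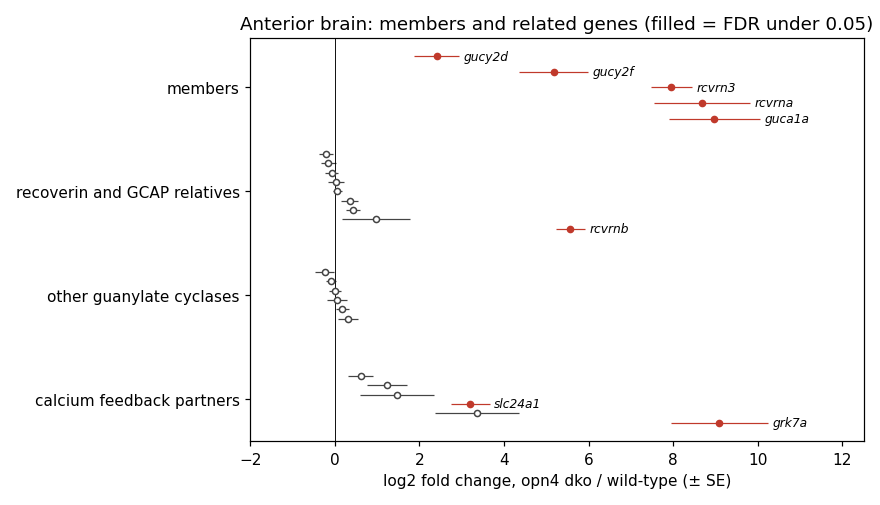
Log2 fold change, opn4 dko over wild-type, with its SE for the tested genes of 4 lists in the anterior brain. Filled red points passed an FDR of 0.05 and are named, and the other guanylate cyclases sit around 0, between -0.24 and 0.31.

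In the posterior brain, the members were read sparsely and none was called. rcvrn3 was the only member kept by the filter, with 3, 8 and 12 counts in wild-type against 4, 55 and 41 in opn4 dko. Its mean was 1.84 ± 1.36 CPM in wild-type and 8.02 ± 7.05 CPM in opn4 dko (SD, n = 3 each), and the log2 fold change of 2.13 with an SE of 0.89 did not pass (edgeR quasi-likelihood test, FDR 0.415). In CPM, opn4 dko replicate 1 lay just below the wild-type range and the other pools above it. Of all 15417 genes tested in the posterior brain, 0.357% were called in either direction. rcvrn3 had an unadjusted p under 0.05, as did 9.74% of genes, and DESeq2 called 0 members.

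The remaining members had few posterior brain reads, and most of those in opn4 dko came from replicate 2. rcvrna had 0 counts in wild-type against 0, 7 and 0 in opn4 dko, and rcvrn2 had 0 in wild-type against 0, 6 and 0 in opn4 dko. gucy2f had 2, 0 and 0 counts in wild-type against 4, 20 and 6 in opn4 dko, a ratio of 14.1 with a counting interval of 3.58 to 122, and gucy2d had 22, 3 and 0 against 3, 26 and 8. The second opn4 dko pool was thus the highest of its group for each of these 4 genes.

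guca1a had 0, 0 and 11 posterior brain counts in wild-type against 4, 11 and 0 in opn4 dko. guca1c had 6 counts in the second wild-type library and 11 in opn4 dko library 3, whereas guca1b and guca1d had none in all 6. The summed pineal markers were at 12.6 to 15.4 CPM in wild-type and 8.81 to 55.9 CPM in opn4 dko, and asmt had 7, 135 and 42 counts in opn4 dko, highest in the same second pool. None of the 3 pineal markers tested was called. The rod markers summed to 1.40 to 3.60 CPM in wild-type and 6.29 to 97.3 CPM in opn4 dko. The 1 rod marker tested was called higher, where 0.357% of genes tested were called in either direction. The paper, with the exact test of edgeR, reports asmt, gnat1 and saga as higher in this part. The part of pineal content in these values was not tested.

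The difference between genotype effects in the anterior and posterior brain was tested as an interaction over all 18 libraries. No member passed, and 0.00537% of the 18630 genes tested did. The count of members at an unadjusted p under 0.05 was 2, where 3% of genes were: rcvrn3, with a difference in log2 fold change of 5.86 and an SE of 1.29 (FDR 0.195), and guca1a, with 8.40 and an SE of 2.1 (FDR 0.40; edgeR quasi-likelihood test). The guca1a value was 3.43 without posterior brain wild-type replicate 3, which held all 11 wild-type counts of that brain part, and 9.86 without posterior brain opn4 dko replicate 2. With actb1 scaling 1 member passed, with DESeq2 1, and without the filter 2. The shares of all genes called with these settings are not given here, so these counts are descriptions. For rcvrna and rcvrn2 the test has no usable value, because both wild-type groups had 0 counts.

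Within opn4 dko, 6 members were called higher in the anterior than in the posterior brain, where 9.02% of genes tested were called higher. This comparison shares its anterior brain libraries with the genotype comparison above. The log2 fold changes were 4.17 (SE 0.57) for rcvrna, 4.08 (SE 0.80) for rcvrn2, 3.21 (SE 0.47) for rcvrn3, 3.43 (SE 0.67) for guca1a, 2.49 (SE 0.61) for gucy2d and 2.21 (SE 0.50) for gucy2f (edgeR quasi-likelihood test, highest FDR 0.00515). The libraries of the brain parts did not overlap for rcvrna, rcvrn3, guca1a and gucy2d, where 20.5% of genes lay wholly higher, and overlapped for rcvrn2 and gucy2f through the low anterior pool 3 and the high second posterior pool. Without posterior brain opn4 dko replicate 2, the log2 fold changes were 3.97 for rcvrn3, 4.87 for guca1a, 3.83 for gucy2d and 3.38 for gucy2f, and rcvrna and rcvrn2 had 0 posterior counts. Leaving out posterior replicate 1 gave 3.48 for rcvrna, 3.39 for rcvrn2 and 2.61 for rcvrn3, leaving out posterior replicate 3 gave 3.58 for rcvrna and 2.83 for guca1a, and leaving out anterior replicate 1 gave 3.22 for rcvrn2. All 6 genes passed whichever of the 6 libraries was left out (edgeR quasi-likelihood test, highest FDR 0.0442). With DESeq2, guca1a (FDR 0.0563) and gucy2d (FDR 0.0727) were not called.

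Within wild-type, no member was called between the brain parts, where 15.8% of genes tested were called in either direction. rcvrn3 had 1, 1 and 2 counts in the anterior part against 3, 8 and 12 in the posterior part, a log2 fold change of -2.64 with an SE of 1.24 (edgeR quasi-likelihood test, FDR 0.171), and its libraries did not overlap, where 17.8% of genes lay wholly lower. guca1a had 0 counts against 0, 0 and 11, so that its posterior value rests on 1 library. These 2 genes had an unadjusted p under 0.05, where 27.1% of genes did (edgeR quasi-likelihood test).

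In the eye, all 9 genes were read in every library and none was called between genotypes by edgeR or DESeq2, where 0.0254% of the 15773 genes tested were called by edgeR. The members' median log2 fold change was -0.26 against 0.03 for all genes. 3 of the 9 had an unadjusted p under 0.05, where 4.28% of genes did. These 3 also did not overlap between genotypes, where 7.72% of genes lay wholly higher and 5.01% wholly lower in opn4 dko.

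The 3 genes went in different directions, and 2 of them belong to the same class of activators. guca1a had 228, 200 and 161 CPM in wild-type and 352, 284 and 373 CPM in opn4 dko, a log2 fold change of 0.75 with an SE of 0.19 (edgeR quasi-likelihood test, FDR 0.973). guca1d had 54.1, 63.6 and 82.3 CPM in wild-type and 33.7, 22.9 and 32.9 CPM in opn4 dko, a log2 fold change of -1.19 with an SE of 0.29 (edgeR quasi-likelihood test, FDR 0.909). All 3 opn4 dko eyes were thus above the wild-type eyes for guca1a and below them for guca1d, but neither difference held after adjustment over all genes.

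gucy2d was at 560, 670 and 570 CPM in wild-type eyes and 414, 403 and 500 CPM in opn4 dko eyes. Its log2 fold change was -0.48 with an SE of 0.17 (edgeR quasi-likelihood test, FDR 0.993). The lowest wild-type eye lay above the highest opn4 dko eye, by less than the SD of the wild-type eyes (60.7 CPM).

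The other 6 genes overlapped between genotypes in the eye. rcvrna was at 205 ± 10.1 CPM in wild-type and 183 ± 17.2 CPM in opn4 dko, rcvrn2 at 1237 ± 218 and 1048 ± 189.5 CPM, and rcvrn3 at 3968 ± 1027 and 3389 ± 587 CPM (SD, n = 3 each). The 3 recoverins had log2 fold changes between -0.27 and -0.20. gucy2f was at 284 ± 41.9 CPM in wild-type and 267 ± 42.2 CPM in opn4 dko.

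guca1b was at 510.0 ± 130 CPM in wild-type and 547 ± 126 CPM in opn4 dko eyes (SD, n = 3 each). guca1c varied between pools, with 943, 2054 and 2066 CPM in wild-type and 694, 1687 and 1508 CPM in opn4 dko. The first replicate was the low one in both genotypes, and the log2 fold change of guca1c was -0.41.

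**Figure D4:**
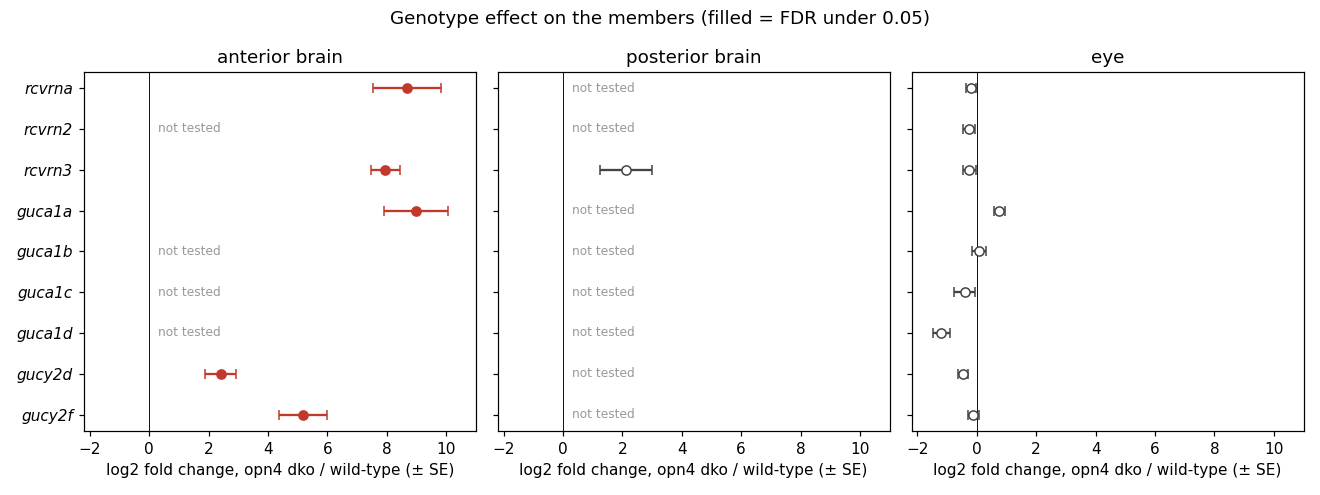
Log2 fold change, opn4 dko over wild-type, with its SE for each of the 9 genes in the 3 tissues, where filled red points passed an FDR of 0.05 and "not tested" marks genes under the filter on low counts. The anterior brain values lie between 2.41 and 8.98 and the eye values between -1.19 and 0.75. The anterior brain values of rcvrna and guca1a depend on the prior count, since wild-type had 0 counts. Across the other settings they went down to 4.74 and 5.02.

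Between wild-type eye and wild-type anterior brain, all 9 genes were called higher in the eye, where 22.3% of genes tested were. gucy2d had the smallest difference, with a log2 fold change of 7.73 and an SE of 0.60 (edgeR quasi-likelihood test, FDR 3.32e-10), and 8.65 without anterior brain replicate 1. guca1b had a log2 fold change of 10.8, and without anterior brain replicate 2 it had no wild-type anterior brain count. For the genes with 0 counts in the wild-type anterior brain, the eye level was at least 8463-fold higher for guca1c, 6297-fold for rcvrn2, 1058-fold for rcvrna, 1042-fold for guca1a and 336-fold for guca1d. The related lists divided by tissue, with all 12 calcium feedback partners higher in the eye and all 7 other guanylate cyclases lower (edgeR quasi-likelihood test, each under FDR 0.05).

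The genotype effect differed between anterior brain and eye for 5 members by the interaction over all 18 libraries, where 0.322% of genes tested were called positive. The difference in log2 fold change was 8.59 (SE 1.03) for rcvrna, 8.35 (SE 1.39) for rcvrn2, 8.17 (SE 0.87) for rcvrn3, 7.96 (SE 1.48) for guca1a and 5.28 (SE 0.81) for gucy2f (edgeR quasi-likelihood test, highest FDR 0.0139). For gucy2d it was 2.92 with an SE of 0.73 and did not pass (edgeR quasi-likelihood test, FDR 0.113), but it passed without the filter on low counts (FDR 0.00141) and, at 3.84, without anterior brain wild-type replicate 1 (FDR 0.0392). The fitted values of rcvrna, rcvrn2 and guca1a depend on the prior count, since wild-type had 0 counts. Without anterior brain opn4 dko replicate 1 the value of rcvrn2 was 7.44 (edgeR quasi-likelihood test, FDR 0.0264). The guca1a call was lost without anterior brain wild-type replicate 2 (FDR 0.0885) and with DESeq2 (FDR 0.057).

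The genes whose level followed the members most closely were sought by Pearson's r between log2 CPM and the mean centred profile of the 9 genes. Over the 12 brain libraries, these were reep6 (r = 0.98), si:ch211-265g22.4 (0.98), cnga1a (0.97), ppm1na (0.97) and gngt1 (0.97). Over all 18 libraries, which include the step from brain to eye, they were reep6 (r = 0.999), prph2lb (0.997), cnga1 (0.996), ENSDARG00000100613 (0.996) and pcare (0.996). The libraries share tissue and genotype, and the r values are descriptions. Each member was also set against the mean of the other members, without itself. Within the brain, r was 0.97 for rcvrna, 0.95 for gucy2f and 0.73 for gucy2d, against -0.04 for guca1b and 0.01 for guca1c, and guca1d had no value because its counts were all 0.

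The gene name table gives the symbol GUCA1A to 2 further identifiers, which were looked at after their values were seen. ENSDARG00000100747 had 113, 199 and 89 counts in wild-type eyes against 154, 242 and 303 in opn4 dko eyes. In the opn4 dko anterior brain it had 6, 0 and 6 counts and in wild-type none. ENSDARG00000101567 had 386, 247 and 109 counts in wild-type eyes against 526, 334 and 345 in opn4 dko eyes, and 3, 0 and 7 counts in the opn4 dko anterior brain against 0, 10 and 4 in wild-type. Whether reads were divided between these genes and guca1a was not tested.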

How the data were processed

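RNA-seq libraries of eye, anterior brain and posterior brain from wild-type and opn4 dko zebrafish (6 groups, 3 pools of 3 fish each) were analysed. The authors deposited raw counts of reads per gene, without normalisation or filter, for 31624 Ensembl genes (release 86, build GRCz10). Per the labels and the deposited commands, reads were counted with featureCounts over whole genes by strand at a mapping quality of at least 20. The commands name HISAT as the mapper and the paper's methods NextGenMap. Reads that map to similar genes can be lost at this quality.

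Each tissue was fitted with its 6 libraries in edgeR 4.0.16 (R 4.3.3), using the quasi-likelihood F-test after TMM normalisation. Low genes were removed with filterByExpr (at a minimum count of 10 and a total of 15), and fold changes used 0.125 as prior count. The cutoff was a Benjamini-Hochberg adjusted p-value (FDR) of 0.05 over all genes tested. The SE was the size of the log2 fold change over the root of F. Tissue comparisons and interactions were taken from a fit of all 18 libraries, which treated tissues with the same replicate number as independent. A group with 0 counts was set to a floor of 3 counts over the group. Intervals cover counting error only, at a confidence level of 0.95. Only the anterior brain genotype fit was tested on simulated data, with changes placed in genes with many counts. Genes at 0 counts in a group and the fits of all 18 libraries were not covered.

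Other tests tried were DESeq2 1.42.0 and the exact test of edgeR. Other scalings were by upper quartile, RLE and actb1. The filter was dropped or raised to 10 counts in each library of a group, the prior count was set to 2, a replicate block was added, the fit was widened to 18 libraries, and single libraries were left out. Sequencing lane as a term and the deposited code (CPM above 1 in at least 2 libraries, exact test) were added after seeing the data.

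The members and lists were chosen with earlier results of these data known. Named were all 9 members, rcvrnb, genes past the cutoff in 3 lists of related genes, marker genes beside the members' results, and the 5 genes most like the members over brain and over all libraries. Symbols came from a gene name table and from identifiers paired with symbols in the paper's source data. Further lists for inner retina, telencephalon, midbrain and hindbrain, habenula and oligodendrocytes were matched. In the anterior brain, the 1 inner retina gene tested (rlbp1a) was called higher, and the paper lists it as expressed in the pineal. None of the other 4 lists had a call, but few genes were tested (telencephalon 1, midbrain and hindbrain 0, habenula 1, oligodendrocytes 3). Sequences and coordinates were not used here.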

Additional observations from a re-analysis of the deposited data

Results flagged for a closer look

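For 5 genes, the genotype effect in the anterior brain differed from that in the eye by the test of the difference itself (edgeR quasi-likelihood test over 18 libraries). The differences in log2 fold change were 7.96 for guca1a, 8.59 for rcvrna, 8.35 for rcvrn2, 8.17 for rcvrn3 and 5.28 for gucy2f. Of all genes tested, 0.322% were called positive by this test. In each case all 3 opn4 dko anterior brains were above all 3 wild-type anterior brains, where 7.71% of genes tested in that tissue lay wholly higher. rcvrn2 was not among the genes tested there, and the other 4 were kept only through their opn4 dko counts. The test of the difference used the same libraries, so this separation is a description and adds no support. In the eye, guca1a was higher in 3 of 3 opn4 dko pools than in every wild-type pool, where 7.72% of genes tested lay wholly higher. It was not called between genotypes there, and the other 4 genes overlapped between genotypes.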

How the results depend on the processing

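The count of members called stayed within 1.5 times the main count in 130 recomputations and moved in 5. In the opn4 dko against wild-type comparison of the anterior brain it was 5, with a range of 4 to 6 when single libraries were left out, and in the posterior brain and eye it was 0 in each of the leave-one-out fits. Between wild-type brain parts it was 2 with every gene with at least 1 count and 2 with DESeq2 (guca1a and rcvrn3, both lower in the anterior part). For the anterior against the posterior genotype effect it was 1 with actb1 as library size (rcvrn3, where the median of all genes shifted by 0.29), 2 with every gene with at least 1 count (rcvrn3 and guca1a) and 1 with DESeq2 (rcvrn3). The shares of all genes called with these other settings are not given, so the counts are descriptions. The cause was not tested. The direction of guca1b in the eye, 0.08 in the main fit, was -0.26 with actb1 scaling and -0.053 and -0.049 at the lowest and up to 0.29 with single libraries left out. Leaving out single libraries also turned uncalled log2 values of sparsely read genes. In wild-type brain parts, gucy2d lay between -0.40 and 3.03 and gucy2f between -0.049 and 3.35. In the opn4 dko brain parts, guca1c lay between -4.84 and 3.28. For the anterior brain effect against that of the eye, guca1b lay between -3.42 and 1.51, and against that of the posterior brain guca1c lay between -1.55 and 7.35, turned also without another library (-0.77), guca1a between 3.43 and 9.86, gucy2d between -0.54 and 3.31 and gucy2f between -1.14 and 2.71.
The correlations of same-numbered deviations lay between -0.02 and 0.12, and the main fits did not pair samples by replicate number. Eyes and brain parts with the same number may come from the same fish, which these low correlations cannot exclude. With the replicate block the counts of members called were 5 for anterior brain, 0 for posterior brain and 0 for eye, while over all genes the calls of the anterior brain went from 161 to 181. Depth limits the genes near 0: 3 counts in a brain library were 0.417 to 0.842 CPM, so that lower levels of guca1b, guca1c and guca1d in brain could be missed.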
